A study of Mus musculus with 4 samples.

Results

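The aminoacyl tRNA synthetases are the enzymes that load each tRNA with its amino acid. They were followed here in stimulated mouse T cells with and without a working leptin receptor. The members were the array features whose annotated gene symbol names a synthetase for 1 amino acid, either subunit of the cytosolic phenylalanine enzyme, or the scaffold proteins Aimp1 and Aimp2. This gave 37 genes of 19087 in the annotation, read by 72 of 33709 gene features. By role, 17 genes encode cytosolic synthetases, 16 mitochondrial ones, 2 (Gars and Kars) serve both compartments and 2 are scaffold proteins.

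The RNA was that of CD4+CD25- T lymphocytes taken from the spleens of C57BL/6 mice. All cells had been held for 12 h with antibodies to CD3 and CD28, which stand in for antigen and costimulation. In the db/db group both copies of the leptin receptor gene carry the diabetes mutation, and the db/+ group, which keeps 1 working copy, served as the wild type. The db/db phenotype is given as leptin-deficient in the sample labels and as leptin-receptor-deficient in the series title. Both groups had 2 samples, each of them RNA of 3 pooled mice on its own one-colour array. The receptor defect is present in the whole animal, so these cells had also developed in a host with it. Such mice are known for obesity and diabetes, which the arrays do not read. In bulk RNA a smaller number of cells of a type and less RNA per cell cannot be told apart.

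Every synthetase joins an amino acid to the end of its tRNA at the cost of ATP, and the loaded tRNA is carried to the ribosome by elongation factors. Mitochondria run a separate translation system with their own synthetases, which are encoded in the nucleus by other genes for most amino acids. In the cytosol several synthetases sit in 1 large complex held together by Aimp1, Aimp2 and Eef1e1. T cells that divide after activation build much protein, and many cytosolic synthetase genes are known targets of ATF4, the transcription factor of the amino acid shortage response, and of MYC.

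Values are log2 intensities after background correction and quantile normalization. A difference is db/db minus db/+ on that scale, with its 95% confidence interval from limma. Some scan lines of the arrays held many spots that departed on single arrays and are called misread stretches. They took in 14 of the 72 member features and left 5 genes (Nars, Sars, Vars, Aars2 and Fars2) with no feature outside. The fit over all gene features is called the first fit, and the fit with those stretches left out is the second. Both use limma with Benjamini-Hochberg adjustment over all features in the fit and a threshold of 0.05. A gene is given by its reporting feature, the brightest one outside misread stretches. A feature with both group means under 7.55, the median over gene features, was taken as dim, which held for 7 of the 72 member features.

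Across the 4 arrays the median raw intensity ran from 102 to 254. T cell markers were present, with 6 of 8 listed genes measured outside misread stretches and none of them dim. Cd4 and Cd28 overlapped between the groups, Cd3e, Cd3d and Cd3g lay higher in both db/db pools (by 1.03, 0.88 and 0.56, none past the threshold), and Zap70 was called lower in the second fit (-0.55, limma adjusted p = 0.0476). Cd5, whose 1 feature lay in a misread stretch, read 14.91 and 14.58 in db/+ against 11.14 and 10.73 in db/db. It was called lower in the first fit (limma adjusted p = 0.0385). Without Cd5, the summed T cell marker level was 15.74 and 15.97 in db/+ against 16.16 and 16.21 in db/db. Markers of other cells differed between the same pools as the synthetases. In both db/db pools 6 of 7 neutrophil genes, both CD8 genes, 4 of 5 B cell genes and both macrophage genes measured outside misread stretches lay above both db/+ pools, as did 35.1% of all features outside the stretches. The summed neutrophil marker level was 12.80 and 14.29 in db/+ against 15.98 and 16.06 in db/db, and that of the CD8 genes 13.49 and 13.84 against 14.74 and 14.73. The summed B cell level was 12.90 and 13.44 against 14.14 and 13.62, and the summed macrophage level 11.50 and 12.79 against 14.52 and 14.44. The summed erythroid level was 10.92 and 12.25 against 13.21 and 13.15, and the summed NK cell level 12.40 and 13.59 against 13.79 and 13.67. The 3 NK cell genes did not go the same way, with differences of 0.89 for Klrd1, the brightest, -0.86 for Klrb1c and -0.43 for Ncr1. Sex-linked genes separated the groups as well. The Y-linked Eif2s3y read 5.97 and 6.68 in db/+ and 13.95 and 13.77 in db/db. Xist, expressed from the inactive X, read 14.33 and 13.88 against 10.06 and 6.60, while the labels give no sex. The part of these differences in the results below was not tested.

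Transcripts of 6 cytosolic synthetases, those for isoleucine, threonine, tyrosine, leucine, methionine and glutamate with proline, were lower in db/db once the misread stretches were left out. Their called features fell 1.48- to 2.02-fold. The mitochondrial synthetases gave no called feature in either direction in the first or second fit. In the first fit none of the 72 member features passed, while 0.418% of all gene features were called lower and 0.578% higher. At an unadjusted p below 0.05 that fit had 13 of the 72 lower and 4 higher, where 5.94% of all gene features were lower and 13.6% higher. In the second fit 6 of 58 member features fell, or 10.3%, and none rose, against 1.51% of all features called lower and 6.69% called higher. All 6 were among the 30 cytosolic features outside misread stretches. With any 1 pool left out neither fit called a member, nor any other feature, and blocking on replicate number left the second fit with 0 members called (smallest limma adjusted p = 0.0603). Without misread stretches, cyclic loess kept the calls of Eprs, Iars, Mars1 and Yars, and median scaling those of Eprs and Lars, where it also called the mitochondrial Ears2 lower and Farsb higher. The split of calls over all features depended on the scaling, with 42.0% of calls lower in the first fit against 68.2% after median scaling and 61.1% after cyclic loess. It was 18.4% in the second fit against 42.9% when the arrays were normalized again without the stretches.

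The brightest Iars feature, for the isoleucyl enzyme of the cytosolic complex, was measured at 15.51 in db/+ pool 1, 15.46 in db/+ pool 2, 14.53 in db/db pool 1 and 14.62 in db/db pool 2, the order kept from here on. The groups did not overlap. This is a difference of -0.91 (interval -1.18 to -0.64), or 1.88-fold lower in db/db (limma adjusted p = 0.0621 in the first fit and 0.0216 in the second). A second Iars feature outside misread stretches, much dimmer, did not show it, at 11.81 and 11.36 against 11.27 and 12.06.

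Tars, the threonyl enzyme, read 15.65 and 15.57 in db/+ and 14.92 and 14.60 in db/db. Both db/db pools were the lower ones, and the difference of -0.85 (-1.30 to -0.41) amounted to 1.80-fold (limma adjusted p = 0.107 and 0.0416). The other Tars feature gave 12.42 and 13.76 in db/+ and 13.15 and 13.53 in db/db, where the groups overlapped and the db/+ pools stood far apart.

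Yars, the tyrosyl enzyme, had 1 feature. It gave 14.82 and 14.81 in db/+ against 13.88 and 14.11 in db/db, a difference of -0.82 (-1.17 to -0.48) or 1.77-fold (limma adjusted p = 0.0849 and 0.0320). The db/+ pools were nearly equal and both lay above the db/db pools.

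Lars, the leucyl enzyme and a known leucine sensor for mTORC1, read 14.58 and 14.43 in db/+ and 13.84 and 13.53 in db/db. The 1.76-fold lower level (-0.82, -1.27 to -0.36) had an adjusted p of 0.116 in the first limma fit and 0.0459 in the second. Its dimmer feature outside misread stretches also had lower db/db values without passing, at 10.28 and 10.64 against 9.45 and 9.92 (adjusted p = 0.225 and 0.112 in the same fits).

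Mars1, the methionyl enzyme, whose product also starts every cytosolic protein, read 14.53 and 14.54 in db/+ and 14.01 and 13.93 in db/db. The difference was the smallest of the called ones, -0.56 (-0.82 to -0.30) or 1.48-fold (limma adjusted p = 0.0937 and 0.0422). Its other feature went the opposite way, at 10.62 and 10.81 against 10.65 and 11.58, with overlap between the groups.

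Eprs, which joins the glutamyl and prolyl enzymes in 1 protein, was called on 1 of its 3 features outside misread stretches. That feature read 10.42 and 9.96 in db/+ and 9.13 and 9.23 in db/db, 2.02-fold lower (difference -1.01, -1.59 to -0.43, limma adjusted p = 0.120 and 0.0455). A brighter feature, at 13.86 and 13.79 against 13.24 and 13.34, fell just short of the threshold in the second fit. The brightest read 14.16 and 14.68 against 13.48 and 14.08 (adjusted p = 0.391 and 0.254). In all 3 both db/db pools lay below both db/+ pools.

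**Figure D1:**
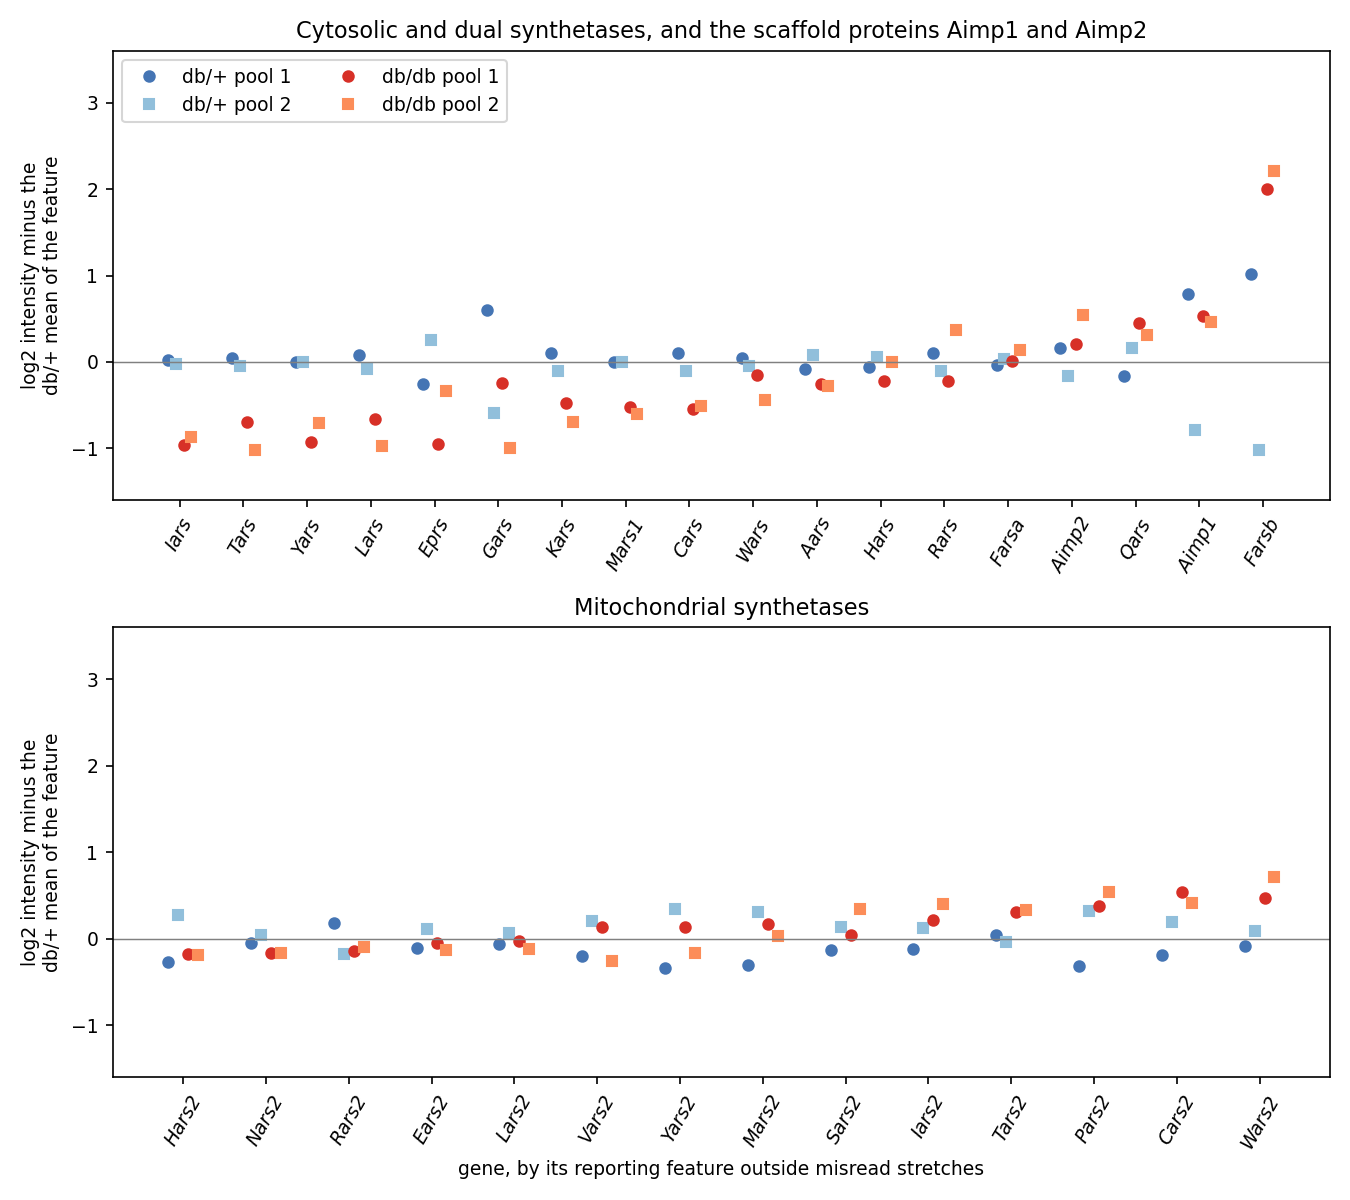
Log2 intensity of the reporting feature of each member gene outside misread stretches, in each of the 4 pools, minus the mean of the 2 db/+ pools (vertical axis, log2 units), with cytosolic and dual synthetases and scaffold proteins above and mitochondrial synthetases below, each ordered by the difference. For Iars, Tars, Yars and Lars both db/db points lie under both db/+ points, while Farsb, Gars and Aimp1 have db/+ pools more than 1 unit apart.

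The promoters of Iars, Tars and Yars are shown because these 3 called genes share a 9-letter element, in capitals, of the kind that ATF4 binds together with C/EBP factors. The element was searched as TGATGNAAN on both strands, in RefSeq windows from 250 bases before to 50 after each gene's start (GRCm38.p6). Each line below runs 5′ to 3′ on the gene's strand, for chr13:49681880-49682179 (+), chr15:11399609-11399908 (-) and chr4:129189653-129189952 (+) in that order.
Iars: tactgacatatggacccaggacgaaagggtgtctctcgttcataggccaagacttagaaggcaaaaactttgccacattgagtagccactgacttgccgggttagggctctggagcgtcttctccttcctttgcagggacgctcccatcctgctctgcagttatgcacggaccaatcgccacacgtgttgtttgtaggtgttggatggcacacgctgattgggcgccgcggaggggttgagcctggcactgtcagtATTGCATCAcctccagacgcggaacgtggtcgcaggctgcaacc
Tars: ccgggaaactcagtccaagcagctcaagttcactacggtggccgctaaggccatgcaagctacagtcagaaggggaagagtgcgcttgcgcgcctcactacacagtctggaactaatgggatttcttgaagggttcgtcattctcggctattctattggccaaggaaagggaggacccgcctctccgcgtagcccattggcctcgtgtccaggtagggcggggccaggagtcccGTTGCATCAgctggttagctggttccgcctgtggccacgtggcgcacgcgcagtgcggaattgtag
Yars: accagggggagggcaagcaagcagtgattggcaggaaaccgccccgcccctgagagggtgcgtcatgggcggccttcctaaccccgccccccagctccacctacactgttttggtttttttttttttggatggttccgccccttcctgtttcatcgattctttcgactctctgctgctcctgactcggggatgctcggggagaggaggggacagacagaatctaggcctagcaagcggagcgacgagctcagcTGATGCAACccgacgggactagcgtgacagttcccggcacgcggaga

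Positions count from the first transcribed base as 1 and from the base before it as -1. In Iars and Tars the element lies on the antisense strand and begins at position 7 and at position -16, respectively. In Yars it lies on the sense strand from position 4. Promoter windows were matched for 28 of the 37 member genes, Lars not among them. The element was in 5 of 12 cytosolic and dual genes, in none of 14 mitochondrial genes and in neither scaffold gene, compared with 3.95% of all 32851 windows. The other genes with it were Aars and Gars, which were not called. Their elements are shown with 16 bases on each side, at chr8:111033713-111033753 (+), chr8:111033834-111033874 (+) and chr6:55037954-55037994 (+).
Aars, from position -113: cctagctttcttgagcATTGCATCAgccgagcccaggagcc
Aars, from position 9: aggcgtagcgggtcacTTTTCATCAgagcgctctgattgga
Gars, from position -31: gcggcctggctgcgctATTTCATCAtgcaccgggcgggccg

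Eprs and Mars1, also called, had none of these letters in their windows, which says nothing of the factor. The E-box CACGTG, a letter string that MYC and its partners bind, was in the windows of Iars, Tars, Aars and Farsb among 10 cytosolic genes, in Ears2 among 14 mitochondrial ones and in 7.15% of all windows. Farsb, which has the E-box, gave higher db/db values than db/+ values. A match of letters is a description of the sequence, not evidence of binding.

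Of the 14 cytosolic genes with a reporting feature outside misread stretches, 10 had a difference below 0 and 4 above, or 12 and 2 under median scaling, cyclic loess and repeated normalization without the stretches. Their median was -0.41, against 0.05 over the reporting features of all genes outside the stretches. With the misread genes added the median was -0.29 over 17 genes. Over all 30 cytosolic features outside the stretches, rather than the reporting ones, it was -0.21, against 0.04 over all gene features there. In 9 of the 14 both db/db pools lay below both db/+ pools. By features, 21 of the 58 member features lay wholly lower in db/db and 10 wholly higher, where 19.9% and 35.1% of all features outside the stretches did so.

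Several cytosolic genes had lower db/db means on the reporting feature without passing in either fit. Cars, the cysteinyl enzyme, read 14.04 and 13.84 in db/+ and 13.39 and 13.43 in db/db (difference -0.53, -0.86 to -0.20, limma adjusted p = 0.135 and 0.0654), and its 3 features all had differences below 0. Wars, the tryptophanyl enzyme, which interferon is known to induce, differed by -0.29 (-0.71 to 0.13). Aars, the alanyl enzyme, differed by -0.26 (-0.57 to 0.04), and Hars, the histidyl enzyme, by -0.11 (-0.48 to 0.26). For Hars the groups overlapped. The other Wars and Hars features differed by 0.006 and 0.009, and the Aars features ran from -0.47 to 0.18. Hars and its mitochondrial partner Hars2 are close paralogues, and whether their features read each other's transcript was not tested.

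Qars, the glutaminyl enzyme, is a member of the same complex as Iars and Lars, yet it read 13.49 and 13.82 in db/+ and 14.11 and 13.97 in db/db. Both db/db pools were higher, by 0.38 in the mean (-0.09 to 0.85, limma adjusted p = 0.330 and 0.214), and its 3 features had differences of 0.03 to 0.38. Rars, the arginyl enzyme (0.07), and Farsa, the catalytic subunit of the phenylalanyl enzyme (0.07 on 1 feature outside misread stretches), differed little, and for both the sign turned under median scaling and cyclic loess. The other Farsa features, all in misread stretches and its brightest among them, differed by -1.02, -1.65 and -1.64.

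Farsb, the other subunit of the phenylalanyl enzyme, had the largest difference of any member outside misread stretches. Its 1 feature gave 11.55 and 9.52 in db/+ against 12.54 and 12.74 in db/db. The groups did not overlap, but the db/+ pools differed from each other by about as much as the group means did. The difference of 2.11 had an interval of -0.18 to 4.40 (limma adjusted p = 0.284 and 0.148).

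Nars, the asparaginyl enzyme, read 15.14 and 14.94 in db/+ and 11.49 and 10.18 in db/db, but its only feature lay in a misread stretch. Its difference of -4.20 (-5.70 to -2.70, limma adjusted p = 0.0730) therefore has no second feature beside it. Vars, the valyl enzyme, had 2 features and Sars, the seryl enzyme, 1 feature, all in misread stretches, with differences of -2.09 and 0.01 for Vars and 0.06 for Sars. Other member features in such stretches departed on single arrays. One Eprs feature read 14.20, 14.07 and 13.39 on 3 arrays and 8.67 in db/db pool 2, and a Farsa feature read 13.34, 13.67 and 13.21 on 3 arrays and 10.50 in db/db pool 1.

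**Figure D2:**
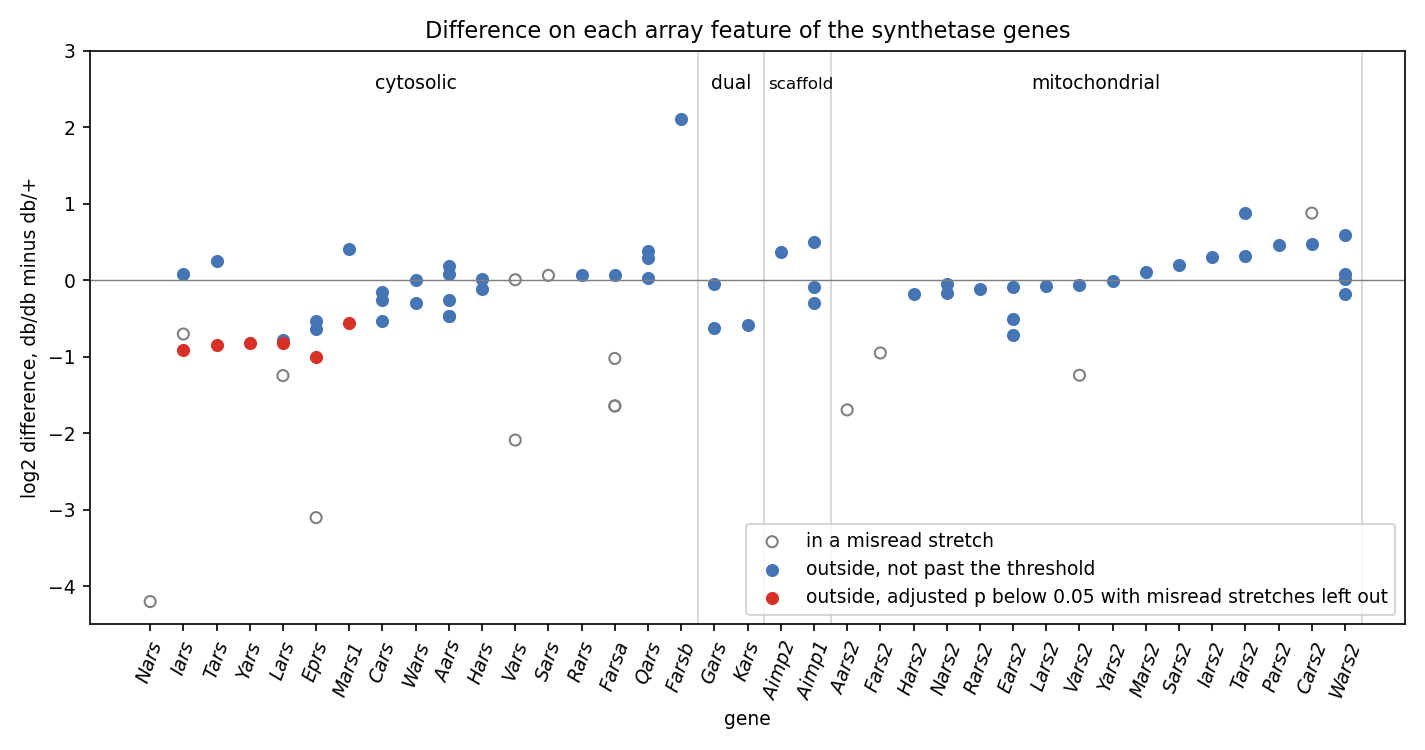
Log2 difference, db/db minus db/+, on each of the 72 member features, grouped by role and gene. Red points are the 6 features past the threshold in the fit without misread stretches, all cytosolic and between -1.01 and -0.56, and open circles are the 14 features inside misread stretches, which reach -4.20.

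Both genes that serve cytosol and mitochondria had lower db/db means. Kars, the lysyl enzyme of the complex, read 14.08 and 13.87 in db/+ and 13.51 and 13.28 in db/db with no overlap (difference -0.58 with a standard error of 0.14, limma adjusted p = 0.164 and 0.0783). Gars, the glycyl enzyme, read 14.27 and 13.08 against 13.43 and 12.68, and the groups overlapped (adjusted p = 0.594 and 0.507 in the limma fits). Its difference of -0.62 was smaller than the gap between its db/+ pools.

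Neither scaffold protein passed the test. Aimp1 read 14.28 and 12.71 in db/+ and 14.03 and 13.95 in db/db on its brightest feature, and its other 2 features were dim. The difference of 0.50 (-1.28 to 2.27, limma adjusted p = 0.703 and 0.646) turned to -0.29 without db/+ pool 2 and was 1.28 without db/+ pool 1. Aimp2 read 12.17 and 11.86 against 12.22 and 12.56, higher by 0.37 (-0.20 to 0.94, adjusted p = 0.415 and 0.295 in the limma fits) on its single feature. Of the complex, 9 genes were among the members, without the aspartyl enzyme, which the members lack, and Eef1e1, which is given below. These split into 5 with differences below 0, namely Iars, Lars, Eprs, Kars and Mars1, and 4 above, namely Rars, Aimp2, Qars and Aimp1. The median over the 9 was -0.56 by the brightest features and -0.079 when a gene's features outside misread stretches were averaged.

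Among the 16 mitochondrial synthetases no feature was called in either limma fit. Of their 25 features 1 was lower (4%) and 4 higher (16%) at an unadjusted p below 0.05 in the first fit, near the 5.94% and 13.6% of all gene features. A reporting feature outside misread stretches was present for 14 genes. Of these, 7 had differences above 0 and 7 below (5 and 9 under each of the other scalings), from -0.18 for Hars2 to 0.59 for Wars2. Their median of 0.042 has no settled direction, since it was -0.04 with all 16 genes and -0.20 and -0.19 for these 14 under median scaling and cyclic loess. Wars2, for tryptophan, read 9.13 and 9.29 in db/+ and 9.68 and 9.92 in db/db, with both db/db pools higher (0.59, 0.18 to 1.00, limma adjusted p = 0.154 and 0.0729). A second Wars2 feature of like brightness lay the other way, at 9.36 in both db/+ pools against 9.19 and 9.16, and the other 2 overlapped.

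Tars2, for threonine, was higher in db/db on both of its features. The brighter read 12.78 and 12.69 in db/+ and 13.05 and 13.06 in db/db, the dimmer 11.65 and 11.11 against 12.22 and 12.30. Neither passed, with limma adjusted p = 0.196 and 0.132 for the brighter and 0.172 and 0.0746 for the dimmer. Cars2, for cysteine, read 10.75 and 11.12 against 11.48 and 11.35 on its feature outside misread stretches (0.48, -0.03 to 0.98, adjusted p = 0.276 and 0.161 in the limma fits).

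For Iars2 and Pars2, which load isoleucine and proline, the pools also did not overlap, with differences of 0.31 and 0.46. The higher mitochondrial genes were less so under median scaling, at 0.12 for Iars2, 0.21 for Pars2, 0.23 for Cars2, 0.18 for Tars2 and 0.37 for Wars2. Nars2, for asparagine, was the 1 mitochondrial gene outside misread stretches whose reporting feature lay lower in both db/db pools (-0.17, -0.43 to 0.09). Of the 14 mitochondrial genes read there, 5 thus lay wholly higher in db/db and 1 wholly lower. Over all 16145 genes outside the stretches, 5885 lay wholly higher and 3193 wholly lower, a like share. Ears2, Lars2, Rars2, Vars2, Yars2, Mars2 and Sars2, for glutamate, leucine, arginine, valine, tyrosine, methionine and serine, overlapped between the groups on their reporting features and differed by -0.12 to 0.19. Mars2 (0.10) and Sars2 (0.19) turned to -0.15 and -0.03 under median scaling. Both dimmer Ears2 features were lower in the db/db pools (-0.72 and -0.50). Aars2 (-1.70) and Fars2 (-0.95), for alanine and phenylalanine, were read in misread stretches only.

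In 10 amino acids both the cytosolic and the mitochondrial enzyme were read outside misread stretches. The cytosolic difference was below the mitochondrial one in 8 of them, with a median gap of -0.77, and above it for histidine and arginine. Isoleucine gave the widest gap, -0.91 for Iars against 0.31 for Iars2, followed by threonine with -0.85 for Tars against 0.32 for Tars2 and cysteine with -0.53 for Cars against 0.48 for Cars2. Under median scaling these pairs stood at -0.76 against 0.12, -0.65 against 0.18 and -0.57 against 0.23, in the same order. The gaps rest on reporting features. Another feature outside misread stretches differed by 0.08 for Iars, 0.25 for Tars, 0.41 for Mars1 and 0.006 for Wars. A further Wars2 feature differed by -0.18. The other features of Cars, Lars and Eprs outside the stretches stayed below 0. Both members of a pair were read on the same 4 arrays, and the gap itself was not tested.

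**Figure D3:**
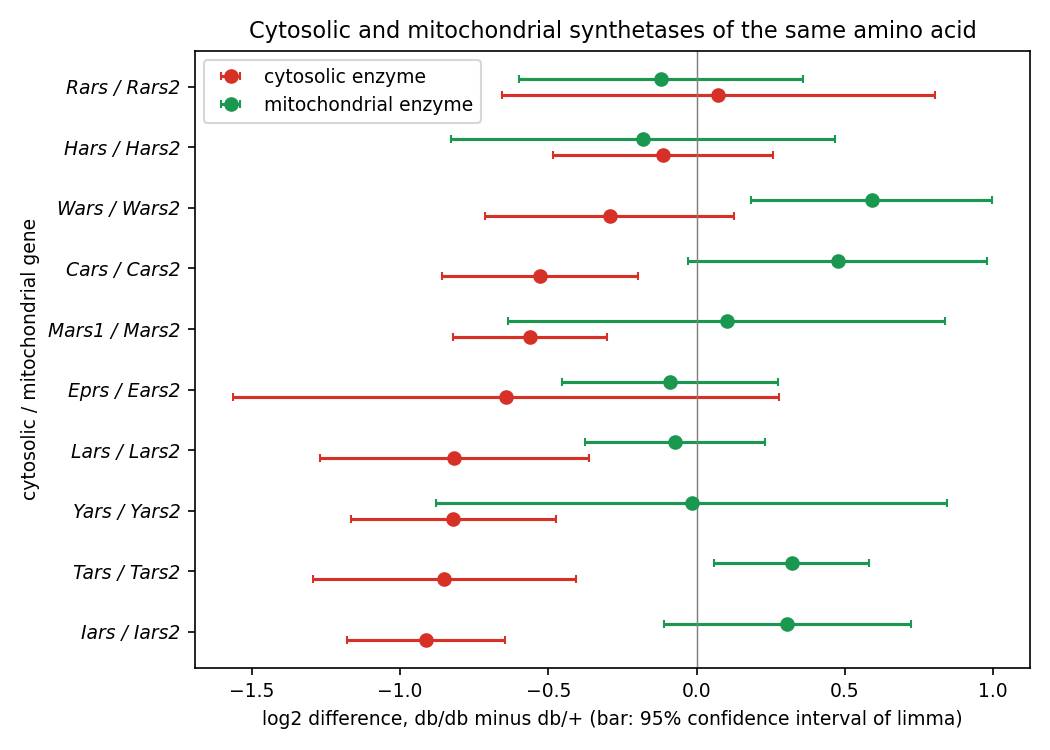
Log2 difference, db/db minus db/+ (horizontal axis), on the reporting feature of the cytosolic (red) and mitochondrial (green) synthetase for each of 10 amino acids, with 95% confidence intervals from limma as bars. The red points lie left of the green ones in 8 of 10 pairs, and the intervals of the isoleucine, threonine, cysteine and tryptophan pairs do not overlap.

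Genes that serve tRNA loading around the synthetases gave no called feature in the second fit, over 28 features of 19 genes, with 4 lower and 3 higher at an unadjusted p below 0.05 among all 35 in the first limma fit (5.94% and 13.6% of all gene features). The 1 call of that fit was a Dtd2 feature in a misread stretch, where Dtd2 removes wrongly loaded amino acids (9.77 and 10.06 in db/+, 7.05 and 6.87 in db/db). Their median difference was 0.04, or -0.07 under median scaling. Eef1e1, the third scaffold protein of the complex, read 15.48 and 13.43 in db/+ and 14.71 and 14.19 in db/db, with the db/db pools between the db/+ pools. Tufm, which carries loaded tRNA to the mitochondrial ribosome, read 13.37 and 13.27 against 12.15 and 12.75 (limma adjusted p = 0.202 and 0.0950). Mtfmt, which formylates the mitochondrial starter tRNA, differed by 0.40, and Gatb and Qrsl1, subunits of the enzyme that makes mitochondrial glutaminyl tRNA, by 0.37 and 0.35, none past the threshold. Under median scaling these were 0.23, 0.13 and 0.14. Eef1b2 differed by 0.89 on its brighter feature and by -0.61 on its dimmer one. Eef1g differed by -0.10 on its brighter feature, which was at the scanner maximum on 3 arrays, and by -0.66 on its dimmer one. None of these passed the threshold.

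Of 19 features of the amino acid shortage response outside misread stretches, 4 fell (21.1%) and 2 rose (10.5%) in the second limma fit, against 1.51% and 6.69% of all features. None of all 28 passed in the first, where 8 were lower and 2 higher at an unadjusted p below 0.05 (5.94% and 13.6% of all gene features). Chac1, a glutathione-degrading target of ATF4, fell 2.39-fold, from 14.68 and 14.67 in db/+ to 13.52 and 13.32 in db/db (limma adjusted p = 0.0558 and 0.0174). Asns, asparagine synthetase, fell 1.64-fold, from 15.09 and 15.06 to 14.35 and 14.38 (adjusted p = 0.0705 and 0.0283 in the limma fits). Cebpg, a partner of ATF4, fell 1.74-fold, from 13.69 and 13.38 to 12.79 and 12.69 (limma adjusted p = 0.117 and 0.0468). The remaining one was a weaker feature of Gcn1, which activates the kinase Eif2ak4, at 9.94 and 9.64 against 8.49 and 8.44, while the brightest Gcn1 feature differed by -0.15. Ddit3 (-0.51) and Sesn2 (-0.93), further targets of ATF4, did not pass.

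The transcript of Atf4 itself overlapped between the groups, at 12.89 and 13.37 in db/+ and 12.94 and 13.40 in db/db. Its activity is known to be set largely by translation, which the arrays do not read. Eif2ak3, a kinase that responds to stress of the endoplasmic reticulum, rose from 11.32 and 11.28 to 12.26 and 12.16 (limma adjusted p = 0.0626 and 0.0216). Impact, an inhibitor of the amino acid sensing kinase Eif2ak4, rose from 10.58 and 10.74 to 11.54 and 11.44 (adjusted p = 0.0776 and 0.0287 in the limma fits). Eif2ak4 itself was near the dim limit and differed by 0.26 (adjusted p = 0.522 and 0.432 in the limma fits).

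**Figure D4:**
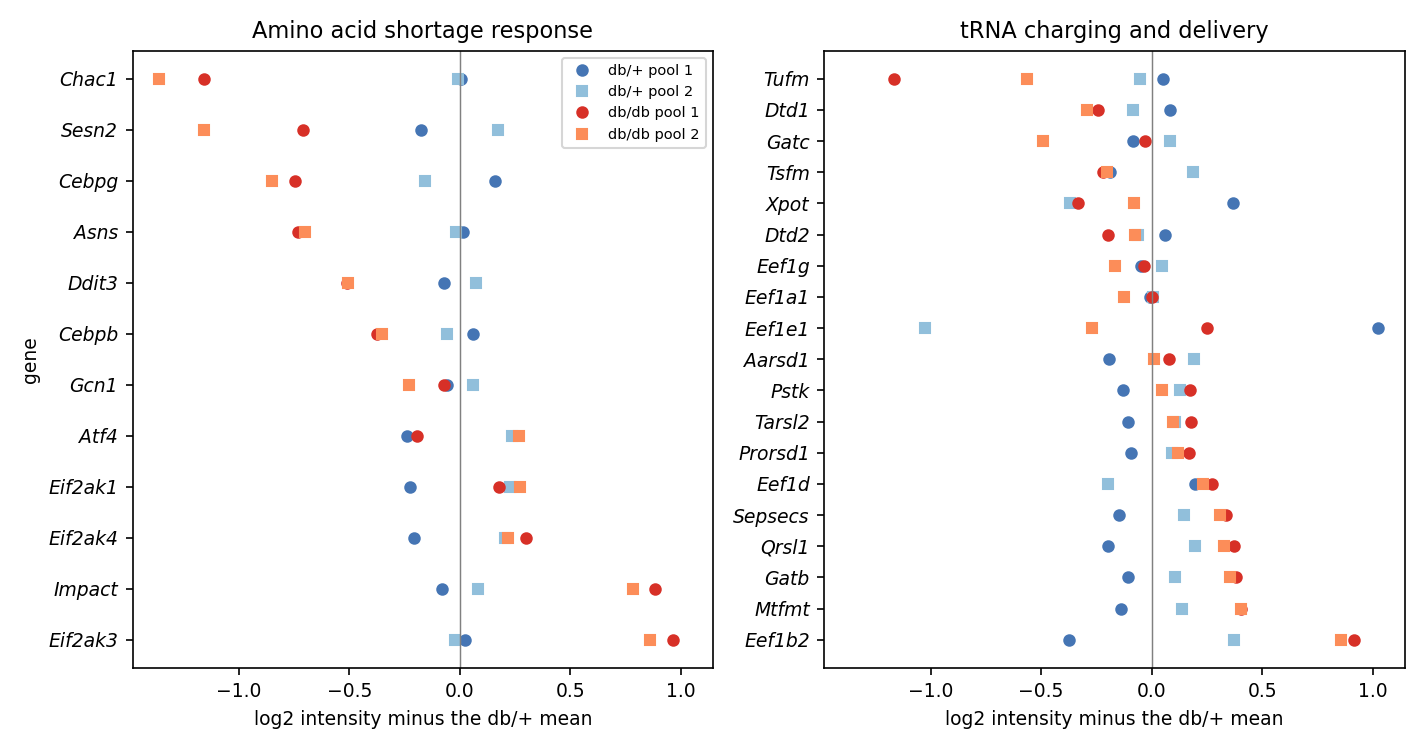
Log2 intensity in each of the 4 pools minus the mean of the db/+ pools (horizontal axis) for genes of the amino acid shortage response (left) and of tRNA charging and delivery (right) read outside misread stretches. On the left the db/db points of Chac1, Asns and Cebpg lie below 0 and those of Eif2ak3 and Impact above, while on the right Eef1e1 has db/+ pools over 1 unit to each side of their mean.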

How the data were processed

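Gene expression was measured on 4 one-colour Agilent arrays. Per the file headers, the deposited raw table holds median foreground intensity on a linear scale, without normalization. The authors' deposited value table holds log2 values and equalled quantile-normalized log2 raw intensity to within 5.00e-09. The submitters' processing notes name limma and no steps. No source used here gives the scanner. In R 4.3.3 with limma 3.58.1, raw intensity was corrected by normexp with an offset of 50, log2 transformed and quantile normalized. Each of the 33709 gene features was fitted for db/db against db/+ with empirical Bayes moderation, two-sided, and adjusted by Benjamini-Hochberg. Precision is limited by having 2 arrays per group, for which an exact permutation test cannot go below p = 0.333.

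The tables name no genes. Each annotated feature was placed by a grid layout inferred from these data, in which 2293 features of 218 accessions with at least 8 features had a median absolute deviation of 0.138 within an accession, against 1.10 when the row number was read as the feature number. All gene names depend on this layout. A spot was marked where 1 array departed by more than 2 on the log2 scale from the median of the rest. A scan line of 266 spots was called misread if more than 5% were marked on some array (40 of 170 lines), and so was any window of 15 spots in which 3 or more were marked. This removed 8242 gene features, or 24.5%. Because it selects on spread, the rule also shrinks the residual spread that the test sees, and a large change between the genotypes can itself trigger it.

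Replicate numbers come from the titles. They do not name a shared experiment, and deviations of same-numbered pools correlated at r = -0.046 over kept features. Pools are separate samples per the labels, and the p-values measure the spread between pools only. Every member gene is named. Values in each pool are given for members called in either fit, for the 3 with the smallest p and the largest opposite difference of each role group, and for others chosen after their values were seen. The members, gene lists, misread rule and tests were chosen with earlier results of these data known. A planned search for letters in the proteins was not run. Promoter sequences are RefSeq's, build GRCm38.p6. Alternatives covered background correction, scaling, the deposited values, dim features, robust moderation, the replicate block and leaving out each pool.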

Additional observations from a re-analysis of the deposited data

How the results depend on the processing

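The calls depended on the processing. The count of member features called lower was 0 in the main setting and stayed 0 without background correction, with the authors' deposited values, under cyclic loess, with dim features left out, with robust moderation and under leave-one-out (0 to 0). It was 1 (Nars) under median scaling, where 270 of all 33709 gene features were called lower. With misread stretches left out it was 6, and 6 again when only differences within a genotype marked them, where 1 feature, of Cars2 and inside a stretch of the wider rule, was called higher. The within-genotype marking called 531 of all 26735 features lower and 1642 higher. Alternatives chosen after seeing the data, all without misread stretches, gave 8 when normalized again, 4 under cyclic loess, 5 with dim features left out, and 4 lower and 1 higher under median scaling, where limma gave every feature the same spread and the calls were Lars on 2 features, Eprs and the mitochondrial Ears2 lower and Farsb higher. Over all 25467 features, lower calls numbered 826 when normalized again, 551 under cyclic loess and 655 under median scaling, against 384 in the second fit. They were 336 of 13465 with dim features left out. Higher calls under median scaling numbered 1267. The same 6 genes were called when normalized again, 4 of them under cyclic loess and 2 under median scaling. With the replicate block no member was called, in the first fit (0) or with misread stretches left out (0, smallest adjusted p = 0.0603), and leaving out any pool from the second fit also gave 0. The cause was not tested.

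The cytosolic median of -0.29 stayed negative in every setting run. It was -0.53 when normalized again, -0.46 under both median scaling and cyclic loess without misread stretches, and -0.52 to -0.34 under leave-one-out. Over all 30 cytosolic features outside misread stretches, rather than the reporting ones, it was weaker, at -0.21. The mitochondrial median of -0.04 was 0.042 with misread stretches left out by either rule, there with the replicate block or without dim features too, and by the mean over features. It was -0.24 under median scaling and -0.23 under cyclic loess, or -0.20 and -0.19 without misread stretches, and -0.23 when normalized again. Under leave-one-out it ran from -0.11 to 0.21, and from -0.04 to 0.30 without misread stretches (0.14 without db/db replicate 2). For the complex the median of -0.56 ran from -0.48 to -0.34 under leave-one-out in both fits (-0.38 without db/+ replicate 2) and was -0.079 by the mean over features. Aimp1 ran from -0.29 to 1.28 under leave-one-out, with the sign turned without db/+ replicate 2. Saturation touched 1 member feature, of Lars in a misread stretch, on 1 array.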

Other observations

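Synthetases fall into class I and class II by the fold of their catalytic domain. Among cytosolic genes outside misread stretches, 7 of 9 class I genes had differences below 0 and 5 had a feature called lower in the second fit (Iars, Yars, Lars, Mars1 and Eprs, whose prolyl domain is of class II), with a median of -0.56. Of 5 class II genes 3 had differences below 0 and 1, Tars, was called, with a median of -0.11. Gars (-0.62) and Kars (-0.58), which serve both compartments and are of class II, are left out of this comparison. Both were lower without being called. By features outside misread stretches, 26.3% of 19 in class I and 9.1% of 11 in class II were called lower, against 1.51% of all features. The medians over these features were -0.29 for class I and 0.009 for class II. The difference between the classes was not tested.

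Features of 1 gene often differed. Of the 6 genes with a called feature, Iars, Tars and Mars1 each had another feature outside misread stretches with a difference above 0 (0.08, 0.25 and 0.41), Lars and Eprs had others below 0, and Yars had no other. In 4 of the 58 member features outside misread stretches the pools of a genotype lay over 1 log2 unit apart, as they did in 871 of 25467 features overall.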
